A study of Nannospalax ehrenbergi and Mus musculus with 14 samples.

Results

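The 4 microRNAs described here are both arms of 2 hairpins, miR-150 and miR-342. They were taken by name (miR-150-5p, miR-150-3p, miR-342-3p and miR-342-5p) from the 1326 microRNA names listed for each library, and all 4 names were found for both species. The study compared how the blind mole rat *Spalax*, a long-lived subterranean rodent that rarely develops tumors, and laboratory mice responded to the carcinogen 3-methylcholanthrene (3MCA). Small RNA was sequenced from 14 libraries of tissue labelled as muscle, taken from the injected side (IS) and the uninjected side (UIS) of 4 *Spalax* and 3 mice, all of them treated. No untreated animal was among these libraries. The question put to the microRNAs was how the tissue at the injected side differed from the opposite side of the same animals.

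*Spalax* were caught in the field, were between about 2 and over 10 years old by estimate, and received 1 mg of 3MCA under the skin at the left side of the neck. Of the *Spalax* with a granuloma, a benign growth, animal Sp600 was sampled 14 months and animal Sp976 16 months after the injection, and both were female. Of the *Spalax* with a fibrosarcoma, a malignant tumor, the female Sp2240 was sampled after 18 months and the male Sp2230 after 30 months. Animals are named as in the labels, with Sp or M before the number. The mice were C57BL/6 males 3 to 4 months old at treatment with 200 μg of 3MCA, and mice M512, M1023 and M1019 were sampled with a fibrosarcoma after 11, 12 and 14 weeks. Each *Spalax* group therefore held 2 libraries and each mouse group 3. The mouse UIS library named M1018 in the value tables carries the number M1019 in the labels, so it was used in its group and not joined to the tumor of mouse M1019. Species, dose, age, time and sex differed together and cannot be told apart.

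miR-150 and miR-342 are counted among the microRNAs of lymphocytes. miR-150 is abundant in resting mature B, T and natural killer cells, is low in their precursors, and is best known for silencing the transcription factor gene Myb, and its level falls when lymphocytes are activated. miR-342 is made from an intron of Evl, which encodes a regulator of the actin cytoskeleton, and is found in lymphocytes and also in myeloid cells and brain. Each hairpin is cut into a 5′ and a 3′ arm, of which 1 is usually kept (the guide) and the other is mostly degraded: the kept arm is miR-150-5p for the former hairpin and miR-342-3p for the latter.

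The mouse hairpins are shown because the arms counted below are cut from either side of their loop. They were read 5′ to 3′ on the plus strand of GRCm38 from the GENCODE M21 transcripts, and capitals mark the terminal loop predicted by RNAfold, with the 5′ arm before it and the 3′ arm after it.
Mir150: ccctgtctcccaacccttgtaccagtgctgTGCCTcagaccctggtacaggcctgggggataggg
Mir342: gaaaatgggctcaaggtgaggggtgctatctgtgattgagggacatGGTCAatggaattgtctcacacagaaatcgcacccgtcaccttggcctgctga
Mir150 lies at chr7:45121757-45121821, is 65 bases long and overlaps no other annotated gene. Mir342 lies at chr12:108658620-108658718 and is 99 bases long. It sits inside Evl (chr12:108554720-108688516) on the same strand, where 5 Evl transcripts span it and 0 of them have an exon over it, so the annotation places it in an intron. *Spalax* sequences of both hairpins were not used here.

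The libraries held 2034574 to 13982842 reads, fewer at the IS (2034574 to 9574014) than at the UIS (11446933 to 13982842). A normalized count below is a deposited value, which is the number of reads divided by a size factor of the library, and the reads themselves were recovered from it. The tissue label was met at the UIS, where 7 skeletal muscle microRNAs took 27.7% to 37.3% of the reads. At the IS they took 0.00959% to 3.94%, and up to 2 of the 7 had no read. In the mouse tumors this share was 3.94% for M512, 2.57% for M1023 and 0.0100% for M1019. The 4 leukocyte microRNAs, the arms of miR-142 and miR-223, took 0.0242% to 0.0568% of the reads at the UIS and 0.316% to 2.35% at the IS. Fewer cells of a type and less RNA per cell cannot be told apart in such whole tissue.

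miR-150-5p was lower at the injected side of every animal with both sides on the deposited scale, and the difference passed the test in the granuloma. In the granuloma animals its normalized count was 1111 (Sp600) and 2598 (Sp976) at the IS, against 8799 and 5644 at the UIS. In the *Spalax* fibrosarcoma animals it was 3011 (Sp2230) and 1892 (Sp2240) at the IS, against 5698 and 7932 at the UIS. The IS value of a *Spalax* was lower than its UIS value by 1.89-fold (Sp2230) to 7.92-fold (Sp600). In the mice it was 343 (M512), 1002 (M1023) and 5312 (M1019) at the tumor, against 3125 (M512), 6972 (M1023) and 7744 (M1018) at the UIS. The mouse groups overlapped, because tumor M1019 lay above the UIS library of M512, while M512 and M1023 were 9.10-fold and 6.96-fold lower at the tumor.

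The limma fit across all microRNAs gave miR-150-5p a log2 change of -2.05 (SE 0.52, adjusted p = 0.0154) in the granuloma. Of the 447 microRNAs tested there, 48.3% were called, 25.5% as higher and 22.8% as lower, and miR-150-5p was the 1 member called. Animal Sp600 carried much of that call: without its IS library the change was -1.44 (limma adjusted p = 0.0777) and without its UIS library -1.73 (limma adjusted p = 0.0995). In the *Spalax* fibrosarcoma the log2 change was -1.49 (SE 0.52, limma adjusted p = 0.0579), with a 95% interval from -2.71 to -0.28, where 37.4% of the 447 tested were called, 15.2% as higher and 22.1% as lower. In the mouse it was -2.17 (SE 0.96, limma adjusted p = 0.0905), where 57.8% of the 547 tested were called, 32.2% as higher and 25.6% as lower. The mouse estimate moved with single tumors: without M1019 the log2 change was -3.23 (limma adjusted p = 0.00887) and without M512 -1.26 (limma adjusted p = 0.215). With the animal as a replicate block, in which mice M512 and M1023 carry the comparison, it was -2.99 (limma adjusted p = 0.00569). On the recovered reads it was -1.30 by edgeR (adjusted p = 0.278) and -1.50 by DESeq2 (adjusted p = 0.160).

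The direction for miR-150-5p depended on how libraries were scaled. Its share of all reads was lower at the IS in Sp600 (0.0249% against 0.0537%), Sp2240 (0.0429% against 0.0565%), M512 (0.00894% against 0.0116%) and M1023 (0.0246% against 0.0377%). It was higher at the IS in Sp976 (0.0580% against 0.0359%) and Sp2230 (0.0692% against 0.0402%). So with library totals in place of the deposited size factors, 4 of 6 animals were lower and 2 were higher at the IS. On that scale the limma log2 change was -0.21 in the granuloma (adjusted p = 0.732), 0.19 in the *Spalax* fibrosarcoma (adjusted p = 0.783) and 0.21 in the mouse (adjusted p = 0.866). The mouse estimate also includes the unpaired tumor M1019, at 0.153% of reads, and the UIS library M1018, at 0.0498%. Scaling to totals moved the median of all microRNAs from 0.13 to 2.02 in the granuloma, from -0.23 to 1.44 in the *Spalax* fibrosarcoma and from 0.21 to 2.76 in the mouse. Relative to that median the log2 change of miR-150-5p stayed near its first value, at -2.18 and -2.23 in the granuloma, -1.26 and -1.25 in the *Spalax* fibrosarcoma and -2.39 and -2.55 in the mouse, on the deposited and the total scale respectively.

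**Figure D1:**
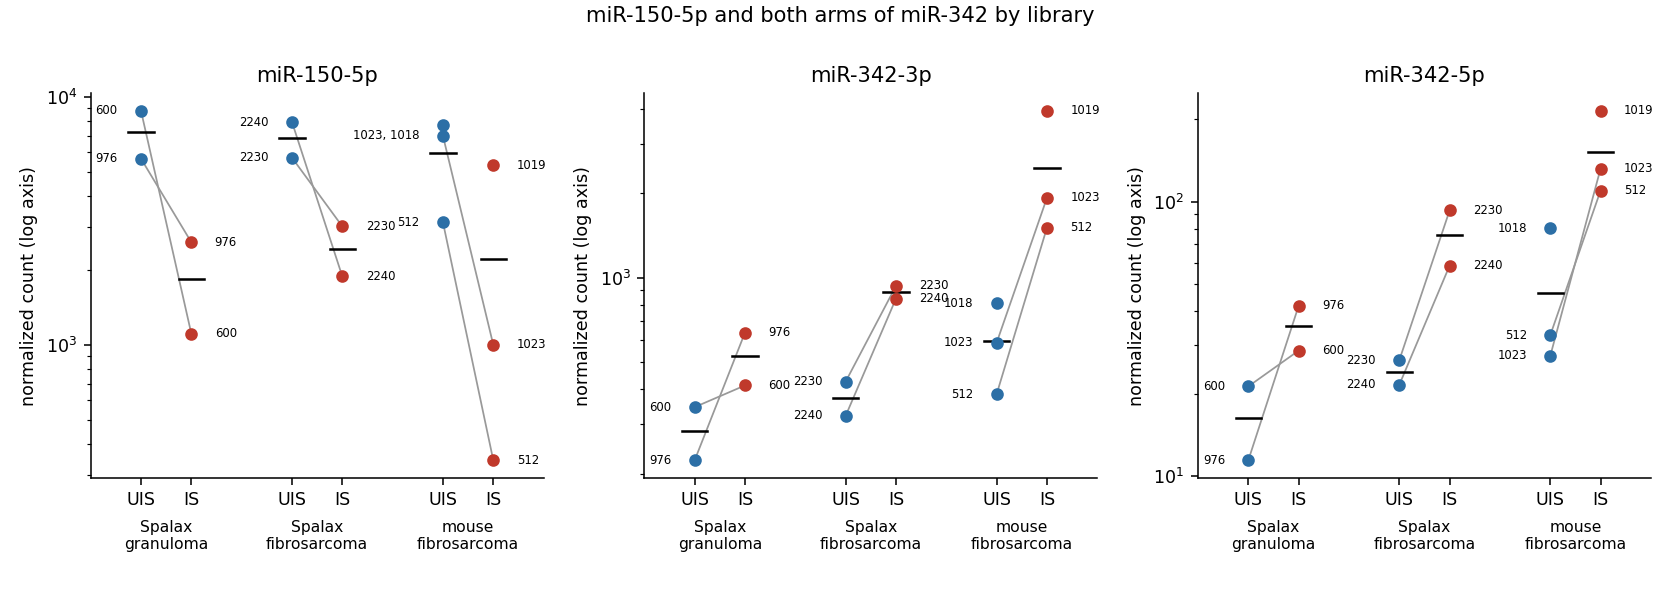
Normalized counts (log axis) of miR-150-5p, miR-342-3p and miR-342-5p in each of the 14 libraries, with UIS in blue, IS in red, animal numbers without their prefix beside the points, grey lines joining the sides of an animal and black bars for group means. miR-150-5p goes down along every line, while both arms of miR-342 go up along every line.

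miR-342-3p was higher at the injected side of all 6 animals with both sides. The rise passed the test in the mouse fibrosarcoma, where 32.2% of the 547 microRNAs tested were called higher. In the granuloma animals its normalized count was 413 (Sp600) and 637 (Sp976) at the IS, against 346 and 224 at the UIS. In the *Spalax* fibrosarcoma animals it was 934 (Sp2230) and 842 (Sp2240) at the IS, against 426 and 322 at the UIS. In the mice it was 1506 (M512), 1924 (M1023) and 3926 (M1019) at the tumor, against 384 (M512), 586 (M1023) and 812 (M1018) at the UIS. The smallest difference within an animal was the 1.19-fold of Sp600 and the largest the 3.92-fold of M512.

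The limma log2 change of miR-342-3p was 1.98 in the mouse (SE 0.48, adjusted p = 0.0130), which is a 3.96-fold rise, and it stayed past the threshold under every scaling, test, filter and block tried and without any 1 library. It was 1.26 in the *Spalax* fibrosarcoma (SE 0.45, limma adjusted p = 0.0593) and 0.88 in the granuloma (SE 0.45, limma adjusted p = 0.139). Of all microRNAs tested, 71.7% had a lower log2 change than miR-342-3p in the mouse, 76.3% in the *Spalax* fibrosarcoma and 61.7% in the granuloma. The 95% intervals ran from 0.22 to 2.30 and from -0.16 to 1.92, so neither *Spalax* comparison settled the size of the change. By share of all reads miR-342-3p was higher at the IS in all 6 animals, by 4.39-fold (Sp600) to 10.0-fold (Sp976) in *Spalax* and by 14.9-fold (M1023) and 27.4-fold (M512) in mice. Scaled to library totals it was called in all 3 comparisons, with log2 changes of 2.72 in the granuloma, 2.94 in the *Spalax* fibrosarcoma and 4.36 in the mouse, but on that scale limma called 68.3%, 52.3% and 76.7% of all microRNAs tested, respectively. Above the median of all microRNAs its log2 change on that scale was 0.70, 1.5 and 1.60, against 0.75, 1.49 and 1.77 on the deposited scale.

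miR-342-5p, the passenger arm, had the same direction as miR-342-3p at a far lower level. Its normalized count in the granuloma animals was 28.7 (Sp600) and 41.8 (Sp976) at the IS, against 21.3 and 11.4 at the UIS. In the *Spalax* fibrosarcoma animals it was 93.1 (Sp2230) and 58.6 (Sp2240) at the IS, against 26.5 and 21.5 at the UIS. In the mice it was 110.0 (M512), 132 (M1023) and 215 (M1019) at the tumor, against 32.7 (M512), 27.5 (M1023) and 80.1 (M1018) at the UIS. The UIS values rested on 9 to 22 reads in *Spalax* and 17 to 59 reads in mice. The limma log2 change was 1.79 in the mouse (SE 0.54, adjusted p = 0.0279), 1.59 in the *Spalax* fibrosarcoma (SE 0.56, adjusted p = 0.0582) and 1.10 in the granuloma (SE 0.56, adjusted p = 0.139). Of all microRNAs tested, 70.0%, 80.3% and 64.2% had a lower log2 change than miR-342-5p, in the same order, and 32.2% were called higher in the mouse. The mouse call was lost with the animal as a replicate block (1.97, limma adjusted p = 0.0731) and without any 1 of 4 libraries, tumors M1019 (1.51) and M1023 (1.86) and the UIS of M512 (1.62) and M1023 (1.49), with limma adjusted p from 0.0643 to 0.104. DESeq2 on the recovered reads called both arms in the *Spalax* fibrosarcoma (1.33, adjusted p = 0.0306 and 1.76, adjusted p = 0.0375), where it called 43.8% of the 447 tested, 20.8% as higher.

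**Figure D2:**
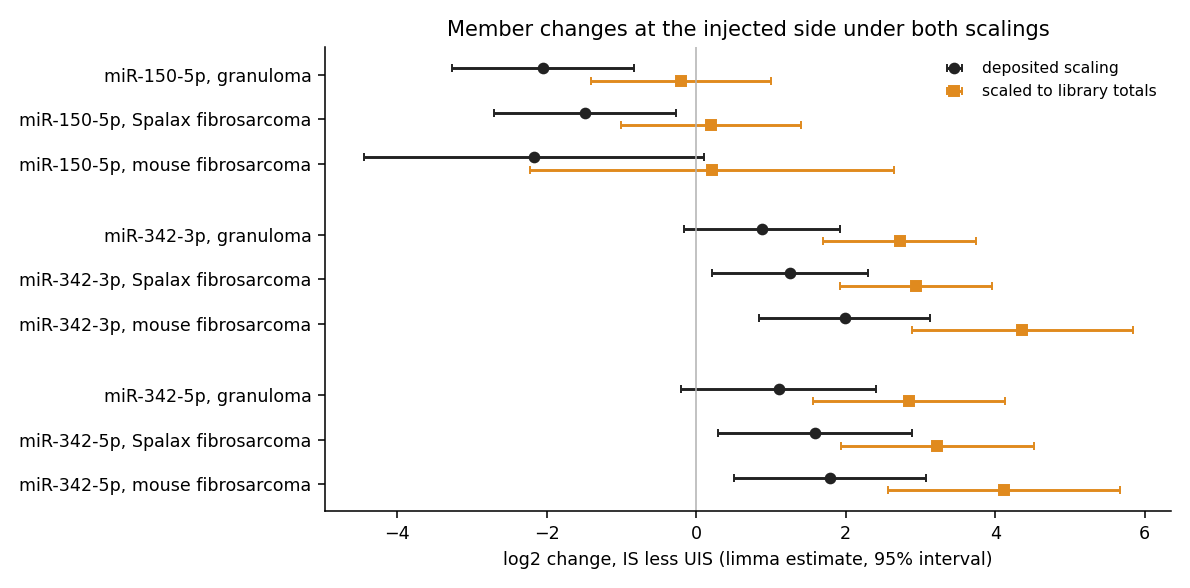
Log2 change of IS less UIS (limma estimate with its 95% interval) for miR-150-5p, miR-342-3p and miR-342-5p in each condition, with the deposited scaling as black circles and scaling to library totals as orange squares. miR-150-5p sits between -2.17 and -1.49 on the first scale and between -0.21 and 0.21 on the second, while all 6 estimates for the arms of miR-342 lie above 0 on both.

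miR-150-3p, the passenger arm of miR-150, had no read in any of the 8 *Spalax* libraries, 0 of 32095 reads on both arms. In single *Spalax* libraries a count of 0 allowed a share of up to 0.0407% to 0.344% of the miR-150 reads. In the mice it had 1 (M512), 46 (M1019) and 7 (M1023) reads at the tumor and 3 (M512), 8 (M1018) and 6 (M1023) reads at the UIS. This was 0.313% to 0.502% of the miR-150 reads at the tumor and 0.118% to 0.184% at the UIS, so the sides did not overlap. The difference of 0.23 percentage points reached p = 0.1 in an exact two-sided permutation test, the smallest p that 3 against 3 libraries allow. miR-150-3p was below the filter on low values in both species. With no filter its log2 change in the mouse was -0.57 (limma adjusted p = 0.654). Of the 557 names with at least as many mouse reads as miR-150-3p (71), 87 had no *Spalax* read either, which is 15.6%. The reference used for the *Spalax* small RNA reads is not given in the sources used here, so a differing sequence and a missing microRNA cannot be told apart.

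The passenger share of miR-342 lay in the same range in both species. miR-342-5p took 4.86% to 9.06% of the miR-342 reads in the 8 *Spalax* libraries (median 6.21%) and 4.47% to 8.98% in the 6 mouse libraries (median 6.62%). It was higher at the IS in 5 of 6 animals, by 1.06 ± 1.46 percentage points (SD, n = 6), with p = 0.156 in an exact two-sided sign-flip permutation test and an adjusted p of 0.188 over the 6 quantities compared within animals. The exact (Clopper-Pearson) 95% intervals ranged from 4.79% to 5.61% for the library with most miR-342 reads, tumor M1019, to 4.63% to 12.2% for the UIS of M512. These intervals and limits cover counting error only. The upper bound was at most 12.2% in the 14 libraries, so miR-342-3p had most of the miR-342 reads on both sides.

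**Figure D3:**
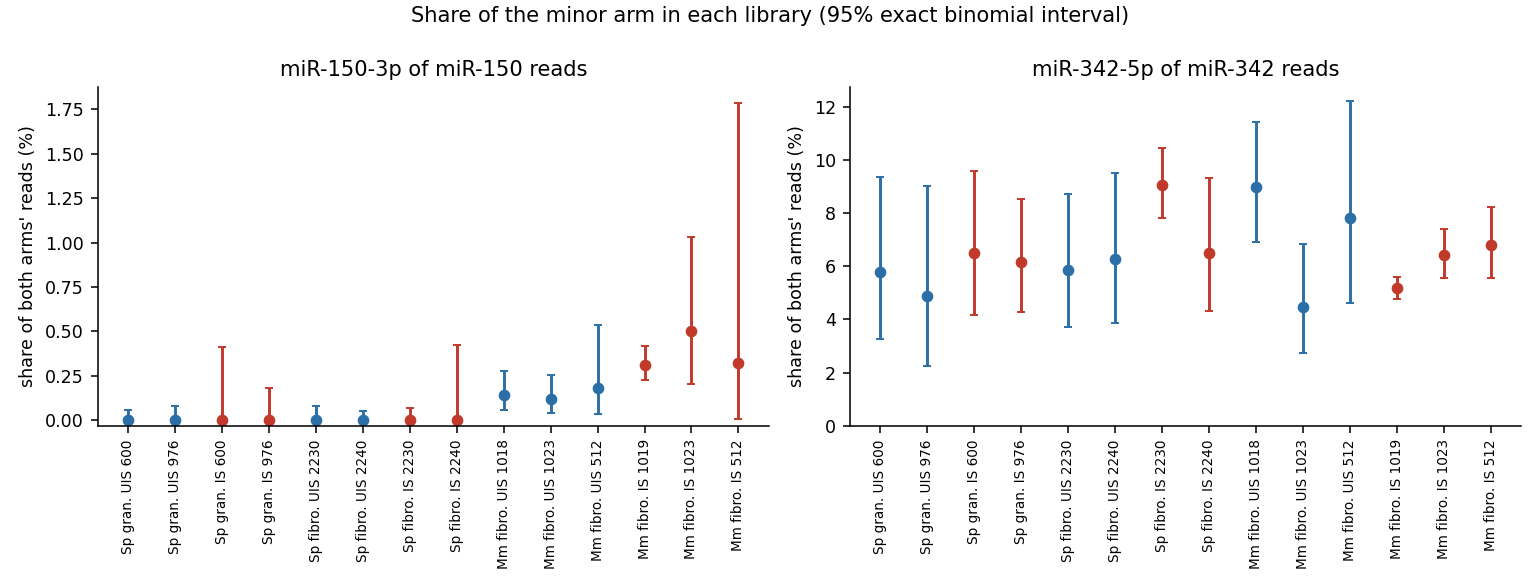
Share of the passenger arm among the reads of both arms (percent, with 95% exact binomial intervals) for miR-150 on the left and miR-342 on the right, in the 8 *Spalax* (Sp) and 6 mouse (Mm) libraries, UIS in blue and IS in red. miR-150-3p is at 0 in every *Spalax* library and between 0.118% and 0.502% in the mice, and the miR-342-5p shares of both species lie in the same range.

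Each of the 6 animals with both sides had a smaller ratio of miR-150-5p to miR-342-3p at the injected side, a comparison that needs no scaling between libraries. Reads of miR-150-5p outnumbered those of miR-342-3p by 13.3-fold to 25.4-fold at the *Spalax* UIS and by 8.11-fold to 11.9-fold at the mouse UIS. At the IS the ratio was 2.68 (Sp600) and 4.07 (Sp976) in granulomas and 3.22 (Sp2230) and 2.25 (Sp2240) in *Spalax* fibrosarcomas. In the mouse tumors it was 0.229 (M512), 0.521 (M1023) and 1.35 (M1019), so miR-342-3p had more reads than miR-150-5p in 2 of 3. IS and UIS libraries did not overlap in any condition. Capture of a sequence during library construction differs between microRNAs, so the change of this ratio is compared here and not the ratio as one of molecules.

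Within animals the log2 ratio of miR-150-5p to miR-342-3p fell by 3.50 on average (SD 1.16, n = 6), and it was lower at the IS in 6 of 6 animals. The exact two-sided sign-flip permutation test gave p = 0.0312, the smallest that 6 animals allow, and an adjusted p of 0.0469 over the 6 quantities. Those 6 include the ratios of both guides to the muscle microRNAs, which the loss of muscle reads at the IS largely fixed. They lower this adjusted p, which would not be under 0.05 without them. The fall was 9.45-fold (Sp600), 6.17-fold (Sp976), 4.14-fold (Sp2230) and 10.9-fold (Sp2240) in *Spalax*, and 35.5-fold (M512) and 22.8-fold (M1023) in mice. Both mouse values were above all 4 *Spalax* values, a difference that was not tested. Over the 4 *Spalax* alone the mean log2 difference was -2.84 ± 0.63 (SD, n = 4) with p = 0.125 in the exact permutation test, and over the mouse libraries, 3 against 3, it was -4.16 with an exact permutation p = 0.1, each the smallest p possible.

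**Figure D4:**
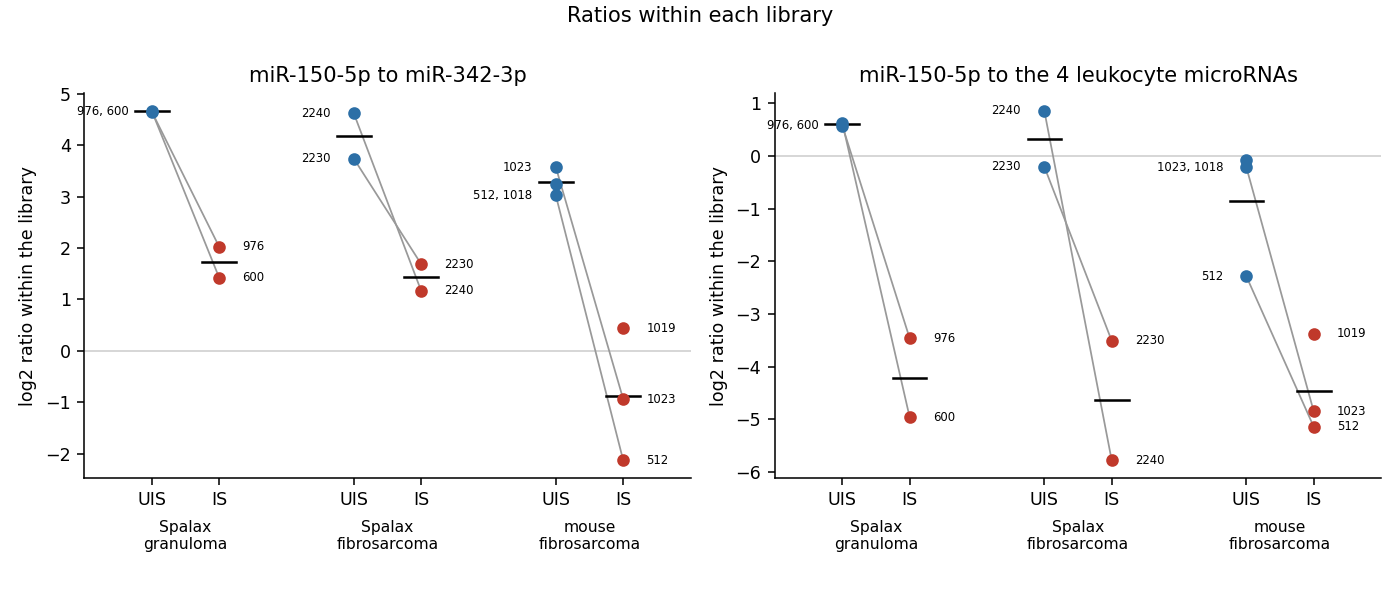
Log2 ratio of miR-150-5p to miR-342-3p (left) and to the summed normalized counts of the 4 leukocyte microRNAs (right) in each library, UIS in blue and IS in red, with grey lines joining the sides of an animal and black bars for group means. Every line falls in both panels, and the mouse tumors of M512 and M1023 are below 0 in the left panel.

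The leukocyte microRNAs were called higher at the injected side in both *Spalax* lesions and in part in the mouse. In the granuloma and in the *Spalax* fibrosarcoma, 4 of 4 were called higher, with median log2 changes of 3.63 and 4.39 against medians of all microRNAs of 0.13 and -0.23. miR-223-3p, a microRNA of neutrophils and monocytes, had log2 changes of 4.39 (SE 1.07, limma adjusted p = 0.0130) and 4.86 (SE 1.07, limma adjusted p = 0.0107) there, and miR-142a-3p, which is found across blood cell lineages, had 3.79 (SE 0.68, limma adjusted p = 0.00392) and 4.71 (SE 0.68, limma adjusted p = 0.00220). In the mouse 2 of 4 were called higher, miR-142a-3p by a log2 change of 2.21 (SE 0.48, limma adjusted p = 0.00852) and miR-223-3p by 1.83 (SE 0.66, limma adjusted p = 0.0487), with a median over the list of 1.94 against 0.21. Tumor M1019, with the most miR-150-5p and miR-342-3p of the mouse tumors, also had the highest leukocyte share, 1.58% of reads against 0.708% in M1023 and 0.316% in M512, and the highest share of the 2 endothelial arms of miR-126, 1.64% against 0.695% and 0.343%. Both arms of miR-126 were called lower at the IS in all 3 conditions, with median log2 changes of -2.30, -2.36 and -2.31 on the deposited scale, and were called in none of them by library totals. The 7 muscle microRNAs were called lower in 7, 7 and 3 cases, the 5 fibroblast microRNAs higher in 5, 0 and 4, and the 3 red cell microRNAs in 0 of any condition, in the order granuloma, *Spalax* fibrosarcoma and mouse. In the same order, 25.5%, 15.2% and 32.2% of all microRNAs tested on the deposited scale were called higher and 22.8%, 22.1% and 25.6% lower. By library totals the 5 fibroblast microRNAs were called higher in 5, 5 and 5 cases and the 4 leukocyte microRNAs in 4, 4 and 4, on a scale where 58.1%, 43.9% and 71.6% of all microRNAs tested were called higher. The part of these cell types in the member values was not tested.

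Set against the leukocyte list within each library, the guides differed. The log2 ratio of miR-150-5p to the summed list fell by 4.50 (SD 1.42, n = 6) and was lower at the IS in 6 of 6 animals, by 7.22-fold (M512) to 98.7-fold (Sp2240), with p = 0.0312 in the exact sign-flip permutation test (adjusted p = 0.0469). The leukocyte list itself took 0.0242% to 0.0568% of the reads at the UIS and 0.316% to 2.35% at the IS. A fall of miR-150-5p against it was therefore largely fixed by that rise and says little about miR-150-5p alone. For miR-342-3p the mean log2 difference was -1.0 ± 1.9 (SD, n = 6), with p = 0.219 in the same exact test. That ratio was lower at the IS in all 4 *Spalax*, by 2.37-fold (Sp2230) to 9.02-fold (Sp2240), while it was 4.92-fold higher in mouse M512 and differed by 1.09-fold in M1023. Against the 7 muscle microRNAs both guides were higher at the IS in 6 of 6 animals, with log2 differences of 8.0 ± 4.6 for miR-150-5p and 11.5 ± 3.6 for miR-342-3p (SD, n = 6; exact permutation p = 0.0312 and adjusted p = 0.0469 for each). The muscle list itself fell from 27.7% to 37.3% of the reads at the UIS to 0.00959% to 3.94% at the IS. A rise against it was therefore largely fixed in advance and is no trait of the guides. Both muscle ratios also lower the adjusted p of 0.0469 given for the other ratios, which would not be under 0.05 without them.

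Of 10 other microRNAs linked to lymphocytes, 9 could be tested in each species. On the deposited scale 2 of the 9 were called and 7 were not within each condition, with different ones called in *Spalax* and in the mouse. miR-146a-5p and miR-146b-5p, which are induced by NF-κB signaling and dampen it, rose in both *Spalax* lesions. The log2 change of miR-146b-5p was 3.57 (SE 0.59, limma adjusted p = 0.00271) in the granuloma and 3.11 (SE 0.59, limma adjusted p = 0.00627) in the fibrosarcoma, and that of miR-146a-5p was 2.66 (SE 0.75, limma adjusted p = 0.0219) and 2.93 (SE 0.75, limma adjusted p = 0.0186). In the mouse the 2 called were miR-181a-5p and miR-181b-5p, microRNAs of developing lymphocytes that are also abundant in muscle, with log2 changes of -1.54 (SE 0.25, limma adjusted p = 0.00344) and -1.69 (SE 0.31, limma adjusted p = 0.00530). miR-155-5p, a microRNA of activated lymphocytes and macrophages, was not called in any condition, with log2 changes of 2.21, 2.88 and -0.03 in the granuloma, the *Spalax* fibrosarcoma and the mouse (limma adjusted p = 0.110, 0.0593 and 0.959). The median log2 change of the list was 0.36, 0.66 and -0.23, against 0.13, -0.23 and 0.21 for all microRNAs. Scaled to library totals, 10 of 10 were called higher in the granuloma, 10 of 10 in the *Spalax* fibrosarcoma and 9 of 10 in the mouse, beside 58.1%, 43.9% and 71.6% of all microRNAs. None of the list was called lower on that scale, so the direction of miR-181a-5p and miR-181b-5p in the mouse rests on the deposited scaling.

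**Figure D5:**
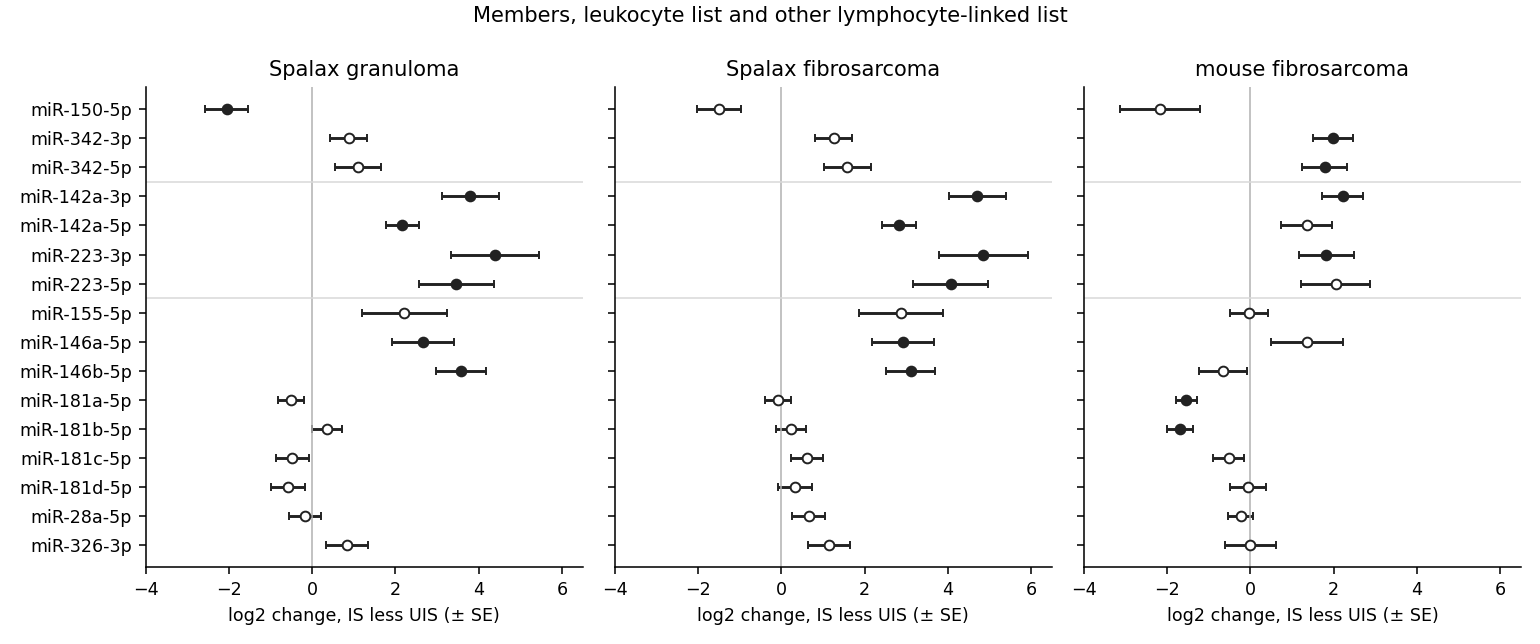
Log2 change of IS less UIS (± SE, limma, deposited scaling) for 3 members (top), the 4 leukocyte microRNAs (middle) and 9 other lymphocyte-linked microRNAs (bottom) in each condition, where filled circles had an adjusted p under 0.05. miR-150-5p is on the left of 0 in all 3 panels, and the 4 leukocyte microRNAs are on the right.

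No member was called as changing differently in the granuloma and in the *Spalax* fibrosarcoma. The difference between the 2 changes was -0.56 (95% interval -2.28 to 1.16, limma adjusted p = 0.749) for miR-150-5p, -0.38 (-1.85 to 1.10, limma adjusted p = 0.787) for miR-342-3p and -0.49 (-2.33 to 1.35, limma adjusted p = 0.777) for miR-342-5p, on the log2 scale. In that comparison 3.80% of the 447 microRNAs were called and 0 of the 3 members tested. No microRNA was called between the uninjected sides of granuloma-bearing and fibrosarcoma-bearing *Spalax*, where 0% of the 447 were called by limma (5 had an unadjusted p under 0.05, against 7 by edgeR and 10 by DESeq2, which also called 0). The log2 differences of granuloma-bearing less fibrosarcoma-bearing animals were 0.07 (95% interval -1.15 to 1.28), -0.41 (-1.45 to 0.63) and -0.58 (-1.88 to 0.72) for miR-150-5p, miR-342-3p and miR-342-5p. With 2 animals a group, these intervals still allow differences of over 2-fold in either direction for miR-150-5p.

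By mean level in *Spalax*, miR-150-5p was highest at the UIS of granuloma (7221 ± 2231) and fibrosarcoma animals (6815 ± 1580), followed by the fibrosarcoma (2451 ± 791) and the granuloma (1855 ± 1052), all as normalized counts (SD, n = 2). The neighbors within each side overlapped, and the sides did not. For miR-342-3p the order was fibrosarcoma (888 ± 65.4), granuloma (525 ± 158), UIS of fibrosarcoma animals (374 ± 73.6) and UIS of granuloma animals (285 ± 86.4). Here the lesions did not overlap each other, whereas the UIS groups did. The sides overlapped too, because the granuloma of Sp600 (413) lay below the UIS of Sp2230 (426). How many of all microRNAs separate in these ways with so few libraries was not counted. On the scale of the table that normalized both species together, which holds 3 mouse tumors and 2 mouse UIS libraries, miR-342-3p was 413 to 934 in the 4 *Spalax* lesions and 1341 to 3301 in the mouse tumors. miR-150-5p on that scale was 1111 to 3011 in *Spalax* lesions and 306 to 4467 in mouse tumors, and 5644 to 8799 against 2536 to 5259 at the UIS. Levels across species were not tested.

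Over all 14 libraries, with the mean of each species subtracted, miR-150-5p and miR-342-3p did not follow each other (Pearson r of log2 values -0.36), while both arms of miR-342 did (0.95). Of the 400 microRNAs tested in both species, those most like miR-150-5p were miR-1249-3p (r = 0.89), miR-151-3p (0.88) and the endothelial miR-126a-3p (0.88), and the least like it was miR-210-3p (-0.90), a microRNA induced by hypoxia. Most like miR-342-3p were miR-21a-3p (0.85), miR-872-5p (0.82) and miR-21a-5p (0.82), and least like it was miR-145a-3p (-0.94), from the smooth muscle hairpin miR-145. These values describe the libraries, which share the IS and UIS contrast and the scaling, and carry no test.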

How the data were processed

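Small RNA libraries (TruSeq Small RNA kit) were sequenced on an Illumina instrument, given as HiSeq2500 in the labels, and mature microRNAs were counted by the authors. The submitters' processing notes name TopHat 1.4.1, HTSeq, DESeq and GRCm38, in no order. By the methods of the study, adapters were removed and small RNA reads were placed with mirDeep, and a *Spalax* genome is named as the reference for the gene reads. The settings and the reference for the *Spalax* small RNA reads are not given in the sources used here. The deposited signal values are reads per microRNA that the authors divided by a size factor of each library, with *Spalax* and mouse libraries normalized in separate tables. The *Spalax* table repeats 5 mouse libraries on its own scale. Dividing by the value of 1 read gave whole reads for 100% of the values (tolerance 1e-06). The number of columns left unused was 0.

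The 8 *Spalax* and the 6 mouse libraries were fitted separately with limma 3.58.1 (R 4.3.3, trend) on log2(value + 1), so fold changes of low microRNAs are understated. A microRNA was tested where its value was at least 10 in 2 *Spalax* or 3 mouse libraries, and called at a Benjamini-Hochberg adjusted p under 0.05 over all tested. Labels put both sides in the same animal, so the numbers pair the samples. Deviations from the group means correlated between sides at 0.0970, 0.0184 and 0.0440 across microRNAs. Ratios and arm shares within libraries were compared by exact two-sided permutation tests. Alternatives were scaling to library totals, size factors computed without muscle microRNAs, edgeR 4.0.16 and DESeq2 1.42.0 on the recovered reads, no filter, a pseudocount of 0.1, the animal as a block, and leaving out each library. On simulated data for the granuloma (439 tested), limma recovered 97.9% of 195 changed microRNAs and called 12 of 244 unchanged ones. For the mouse (598 tested) it recovered 100% of 198 and called 0 of 400. How often limma would call changes of the size and spread seen for the members was not tested. Named microRNAs are the members, those called in the lists and the 3 most and the 1 least like each guide by Pearson r. miR-155-5p was named after its values were seen. MicroRNAs sharing a seed were not looked for here. Members and lists were chosen with earlier results of these data known. Hairpins were folded with ViennaRNA 2.7.2.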

Additional observations from a re-analysis of the deposited data

How the results depend on the processing

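For miR-150-5p, scaling to library totals gave log2 changes of -0.21 (granuloma, call lost), 0.19 (*Spalax* fibrosarcoma, direction turned) and 0.21 (mouse, direction turned). By totals mice M512 and M1023 were still lower at the tumor, and the mouse fit also holds the unpaired tumor M1019. For miR-342-3p and miR-342-5p it added calls, at 2.72 and 2.84 in the granuloma and 2.94 and 3.23 in the *Spalax* fibrosarcoma, and the higher share of all calls went from 52.8% to 85.1%, from 40.7% to 83.9% and in the mouse from 55.7% to 93.3%. DESeq2 called both arms of miR-342 in the *Spalax* fibrosarcoma (1.33 and 1.76). For miR-150-5p in the mouse, edgeR gave -1.30 and DESeq2 -1.50, neither called. With the animal as a replicate block miR-150-5p was called in the mouse (-2.99) and miR-342-5p was not (1.97), and the block changed no other call on a member. The log2 difference of miR-150-5p between uninjected sides was -0.12 by totals and -0.064 by edgeR, against 0.07.

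MicroRNAs whose change differed between granuloma and *Spalax* fibrosarcoma numbered 17, against 32 by totals, 61 by DESeq2, 5 with the block, and 0 with no filter or a pseudocount of 0.1. Leaving out 1 library moved that count from 0 to 35, the granuloma count from 128 to 234, the *Spalax* fibrosarcoma count from 76 to 179 and the mouse count from 189 to 289. The log2 change of miR-150-5p then ranged from -2.66 to -1.44 (granuloma), from -1.83 to -1.16 (*Spalax* fibrosarcoma, called without either granuloma IS library) and from -3.23 to -1.26 (mouse), and that of miR-342-5p in the mouse from 1.49 to 2.25. Its difference between lesions ranged for miR-150-5p from -1.17 to 0.054 and between uninjected sides from -0.25 to 0.39. Without 1 animal the log2 ratio of miR-150-5p to miR-342-3p changed by -3.80 to -3.18, to the leukocyte list by -4.83 to -4.08 and to the muscle list by 7.09 to 9.11, and that of miR-342-3p to the muscle list by 10.8 to 12.3, each with an exact permutation p = 0.0625, the smallest that 5 animals allow. The causes were not tested. At the UIS miR-342-5p rested on 9 to 59 reads and miR-150-3p on at most 8. Each *Spalax* group held 2 animals.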
